A study of Mus musculus with 8 samples.

Results

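Sugars, lactate, inositol, carnitine and many organic anions and cations enter and leave cells through carrier proteins of the Slc2, Slc5, Slc16 and Slc22 families. Their genes were examined in RNA-seq of lower molars from 8 mouse embryos at E18.5, in which loss of the Notch ligand Jagged1 from the epithelium was compared with its presence. The members were all protein-coding genes named Slc2a, Slc5a, Slc16a or Slc22a plus a number. This gave 62 of the 43629 genes counted, of which 12 were Slc2, 11 Slc5, 14 Slc16 and 25 Slc22 genes. In the 36 members with enough reads to be tested, 4 rose and 2 fell in the mutant molars, and this share of 16.7% was close to the 16.1% of all tested genes that changed.

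The 4 K14Cre;Jagged1 fl/fl embryos, labelled Mutant and named K14J26, K14J28, K14J29 and K14J30, carried floxed Jagged1 and a Cre under the keratin 14 promoter, which is active in epithelium. The 4 controls, labelled Control and named J3, J5, J6 and J7, carried the same floxed Jagged1 and are described as littermates. The name WT is used for them here as in the study. The left molar was pooled with the right one, so that each library holds the epithelium and mesenchyme of 1 embryo, and the mesenchyme is not targeted by this Cre. The sex of the embryos and the litter of each are not given in the sources used here, and the p-values measure the spread between these embryos. In such bulk samples fewer cells of a type and less RNA per cell cannot be told apart.

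Slc2 proteins, also called GLUT, let hexoses and related molecules move down their gradient, and Slc5 proteins use the sodium gradient to draw in sugars, inositol, iodide, vitamins or short organic acids. Slc16 proteins, also called MCT, carry lactate, pyruvate and ketone bodies together with a proton, and some members carry aromatic amino acids instead. Slc22 proteins carry organic cations, organic anions and carnitine, and many of them are best known from kidney and liver. In the late bell stage molar, ameloblasts and odontoblasts begin to secrete the enamel and dentin matrices.

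The libraries held between 17327224 and 29792467 counts on genes, and 3 counts corresponded to between 0.0998 and 0.166 CPM (reads of a gene relative to a library size that was scaled by the TMM method). Jagged1 itself (gene symbol Jag1) was measured at 95.2 to 104 CPM in the WT and 34.0 to 57.1 CPM in the mutants. Its log2 fold change was -1.19 (SE 0.14, edgeR adjusted p = 0.00517). Markers of dental epithelium summed to 4654 to 5368 CPM in the WT and 5483 to 8078 CPM in the mutants, with 1 of 6 higher, and those of dental mesenchyme to 1020 to 1137 and 891 to 1072 CPM, with 4 of 6 lower. The 3 enamel genes Amelx, Ambn and Enam took 9.57% of all counts in K14J26, 2.47% in K14J29 and at most 0.965% in the other embryos. The ameloblast score, the mean log2(CPM + 0.1) of 5 enamel genes, was 4.74 to 6.88 in the WT and 6.95, 8.18, 9.79 and 11.78 in K14J28, K14J30, K14J29 and K14J26. The 8 skeletal muscle markers summed to 384 CPM in J6 and 207 CPM in J7, against 4.98 to 20.4 CPM in the other 6 embryos. Xist, the RNA made from the inactive X chromosome of female cells, reached 1928 CPM in K14J28, 1467 CPM in K14J29 and no more than 1.09 CPM elsewhere. By this marker K14J28 and K14J29 were female and the other embryos male, so that sex was not balanced between the groups. K14J28 was also highest in osteoclast markers (1339 CPM, against 187 to 436 CPM in the other embryos). K14J26, with its enamel genes, J6 and J7, with muscle markers, and K14J28 and K14J29 thus stood apart. For each carrier given embryo by embryo the log2 fold change without K14J26 and without J6 and J7 is given beside it. Without K14J28 all 6 called carriers kept their call, with log2 fold changes of 1.14 for Slc2a12, 0.57 for Slc2a10, 0.61 for Slc16a7, 2.12 for Slc5a8, -0.97 for Slc16a6 and -0.85 for Slc2a3. Without K14J29 only Slc16a6 of the 6 was called.

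The transcript level of the carriers in the molar was read per kilobase of exon, averaged over the 8 embryos. Slc22a17, the receptor for lipocalin 2, was the highest member at 22.9 CPM per kb. The proton-coupled lactate carrier Slc16a1 (MCT1) followed at 17.8, and the orphan Slc22a23 and the general glucose carrier Slc2a1 (GLUT1) both stood at 16 CPM per kb. The intracellular hexose carrier Slc2a8 (GLUT8) reached 7.07 and the carnitine carrier Slc22a5 6.47 CPM per kb. The highest Slc5 gene was Slc5a6, which carries biotin and pantothenate, at 2.79 CPM per kb. Of its exon bases 9.9% lie opposite exons of Atraid, which stood at 63.3 CPM in the WT and 64.2 CPM in the mutants, so that its level is in part uncertain. Slc2a1 thus had the highest transcript level of the sugar carriers and Slc16a1 that of the lactate carriers in these molars. Protein and transport were not measured.

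The other end of the range was nearly silent. In 26 members too few reads were counted for a test. Their highest count in any embryo was 10, for the choline carrier Slc5a7 in J3, and 5 of them (Slc5a12, Slc22a20, Slc22a26, Slc22a27 and Slc22a28) had no count in any embryo, which allows up to 3 counts. All 13 organic anion carriers were among them, with at most 6 counts, as were all 3 organic cation carriers with at most 5. The liver and beta cell glucose carrier Slc2a2 had at most 1 count. Of Slc22, 7 of 25 members were left, against 10 of 12 in Slc2, 8 of 11 in Slc5 and 11 of 14 in Slc16.

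**Figure D1:**
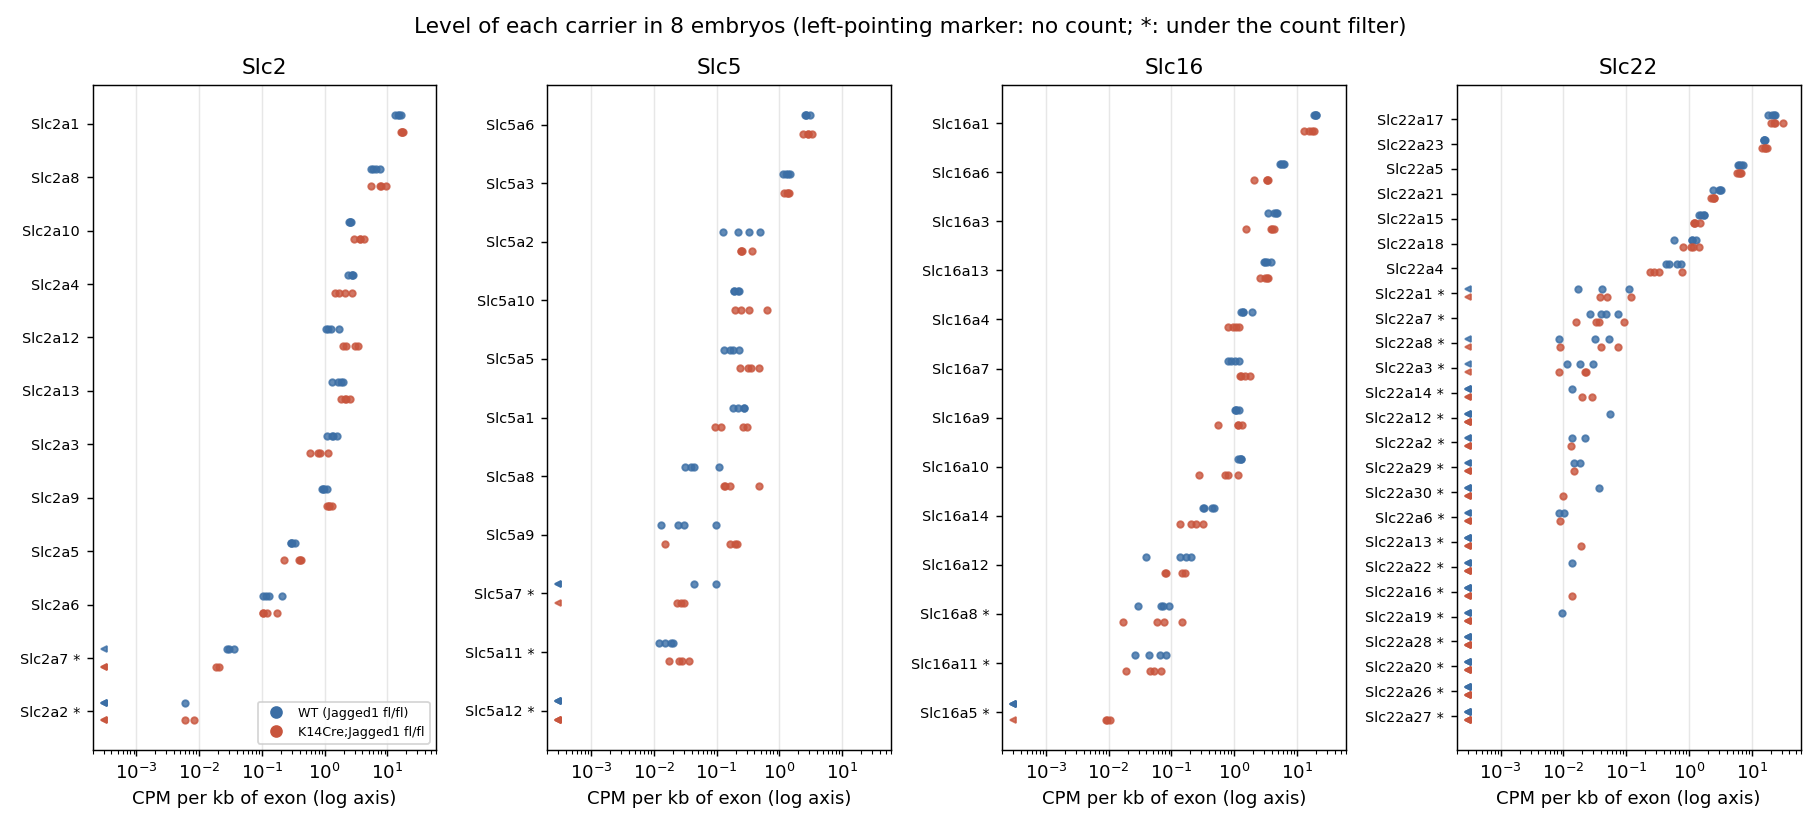
Level of 61 carriers in each of the 8 embryos, as CPM per kb of exon on a log axis, with 1 panel per family, blue points for WT and red points for K14Cre;Jagged1 fl/fl. Left-pointing markers at the edge stand for no count and an asterisk for a carrier under the count filter. Slc22a17, Slc16a1, Slc22a23 and Slc2a1 lead, and most Slc22 genes lie near or at 0.

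The DNA just before the start of a carrier gene was compared with the short motifs that hypoxia factors (ACGTG) and Rbpj, the DNA-binding partner of Notch (TGGGAA), are known to bind. RefSeq promoter windows on GRCm38.p6, of which the 250 bases before the start were read, were found for 49 of the 62 members and 27 of the 36 tested ones. The windows of Slc2a12 and Slc5a8, whose genes rose, are shown with those of the highest Slc16 and Slc22 members, so that windows without and with a match can be set side by side. They lie at chr10:22644761-22645010 (plus strand, Slc2a12), chr10:88885742-88885991 (plus strand, Slc5a8), chr3:104638414-104638663 (plus strand, Slc16a1) and chr14:54913133-54913382 (minus strand, Slc22a17). Each is written 5′ to 3′ along its gene, and capitals mark every match to ACGTG or TGGGAA on either strand.
Slc2a12: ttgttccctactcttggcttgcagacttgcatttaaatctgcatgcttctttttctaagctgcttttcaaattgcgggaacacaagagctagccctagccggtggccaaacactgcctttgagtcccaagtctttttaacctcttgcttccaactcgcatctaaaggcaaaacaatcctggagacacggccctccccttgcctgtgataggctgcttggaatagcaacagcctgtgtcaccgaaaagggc
Slc5a8: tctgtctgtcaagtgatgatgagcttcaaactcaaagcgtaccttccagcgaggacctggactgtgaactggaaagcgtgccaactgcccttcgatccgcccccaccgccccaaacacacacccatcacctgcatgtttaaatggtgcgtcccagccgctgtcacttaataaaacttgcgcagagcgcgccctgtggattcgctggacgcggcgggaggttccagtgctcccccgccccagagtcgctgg
Slc16a1: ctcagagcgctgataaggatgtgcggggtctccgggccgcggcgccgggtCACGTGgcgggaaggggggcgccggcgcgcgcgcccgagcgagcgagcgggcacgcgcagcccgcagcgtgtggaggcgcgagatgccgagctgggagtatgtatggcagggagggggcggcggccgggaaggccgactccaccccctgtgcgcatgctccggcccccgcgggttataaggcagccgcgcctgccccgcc
Slc22a17: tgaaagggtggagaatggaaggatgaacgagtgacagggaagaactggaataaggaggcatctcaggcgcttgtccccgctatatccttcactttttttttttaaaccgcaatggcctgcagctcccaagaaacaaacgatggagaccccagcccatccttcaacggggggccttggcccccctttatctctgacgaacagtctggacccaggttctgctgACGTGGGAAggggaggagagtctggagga
The Slc2a12 and Slc5a8 windows held neither motif, and neither did that of Slc2a10, the other carrier with a rise and a window. The single match of Slc16a1 reads CACGTG, which holds the hypoxia core on both strands and is also an E-box. In Slc22a17 a hypoxia core and an Rbpj core share the bases TG. Over the 49 members with a window, ACGTG was found in 8 (16.3%), against 16.6% of 27025 promoter windows, and TGGGAA also in 8 (16.3%), against 21.5%. Of the 27 windows of tested members, which had passed a count filter that the 27025 had not, 7 (25.9%) held ACGTG and 2 (7.41%) held TGGGAA. Such matches are letters in a window and were not tested as binding sites.

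The 2 groups were then compared across the 17129 genes with enough counts. Carriers higher in the mutants at an adjusted p under 0.05 numbered 4 of 36 (Slc2a12, Slc2a10, Slc16a7 and Slc5a8), where 9.52% of all genes were called higher. Carriers lower numbered 2 (Slc16a6 and Slc2a3), where 6.61% of all genes were called lower. The study's criteria were an unadjusted p no higher than 0.05 with a log2 fold change of 0.5 or more in either direction. By these, 5 carriers were higher against 8.33% of all genes, and 5 were lower against 5.85%. Slc5a8, higher by both rules, and Slc5a9, higher by the study's criteria, passed the count filter through the mutants alone. The embryos of the groups did not overlap in 6 carriers that were higher in all mutants, against 12.6% of all genes, and in 5 that were lower in all mutants, against 11.6%. The median log2 fold change of the 36 carriers was -0.06 and that of all genes 0.01, and the median size was 0.28 and 0.22. The carriers were thus called about as often as other genes by the adjusted p and more often by the study's criteria (5 of 36 in each direction), which was not tested as a difference, and 25 of the 36 passed neither rule.

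**Figure D2:**
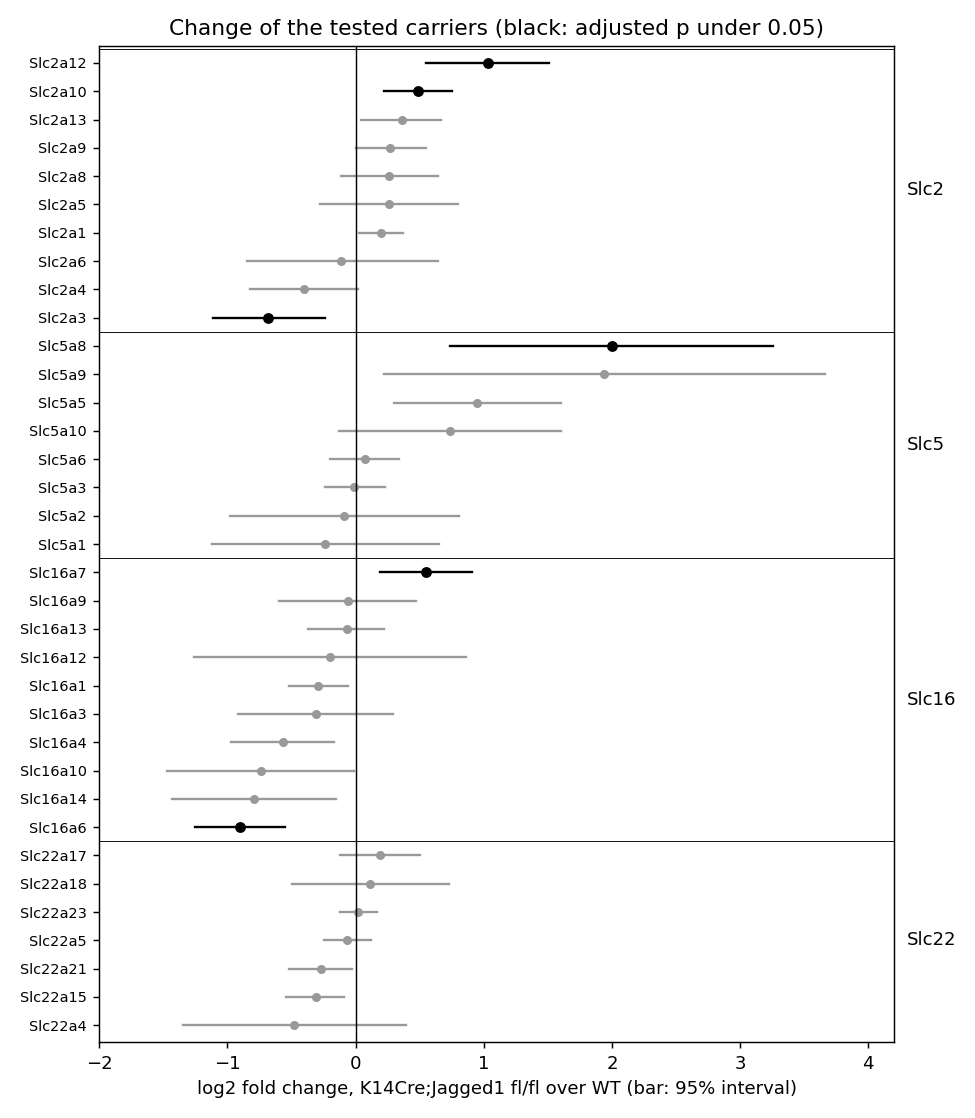
Log2 fold change of 35 of the tested carriers, K14Cre;Jagged1 fl/fl over WT, with the 95% interval as a bar and the families in 4 blocks. Black marks an edgeR adjusted p under 0.05. Of the Slc16 carriers drawn, Slc16a7 alone lies above 0, and in Slc2 7 of 10 do.

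Of the class III carriers of hexoses and inositol, all 5 were tested and 2 rose. Slc2a12 (GLUT12, ENSMUSG00000037490, chr10:22645011-22704285) is a glucose carrier. It was measured at 4.48, 7.21, 5.39 and 4.83 CPM in J3, J5, J6 and J7 and at 14.3, 8.35, 13 and 9.27 CPM in K14J26, K14J28, K14J29 and K14J30. Every mutant lay above every WT embryo, and K14J26 and K14J29 were the highest. The mean rose from 5.48 ± 1.21 CPM in the WT to 11.2 ± 2.87 CPM in the mutants (SD, n = 4 embryos each), and the log2 fold change was 1.03 (SE 0.21, edgeR adjusted p = 0.0186). It was 0.89 without K14J26 and 0.93 without J6 and J7 together. The call was lost without J3 (adjusted p = 0.0580), J7 (0.0633), K14J29 (0.0626) or J6 and J7 together (0.170). Of its exon bases 9.6% lie opposite exons of Tbpl1, which stood at 51.8 CPM in the WT and 49.6 CPM in the mutants. The sequencing kit does not mark strand and the rule of the counting is not stated, so that reads of the overlap cannot be assigned.

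Slc2a10 (GLUT10, ENSMUSG00000027661, chr2:165503787-165519917), a carrier of glucose and dehydroascorbic acid, was at 8.74, 9.52, 9.18 and 9.12 CPM in the 4 WT embryos and at 12.9, 10.3, 14.9 and 13.1 CPM in K14J26, K14J28, K14J29 and K14J30. The WT embryos were close together and all below the mutants. Its log2 fold change was 0.49 (SE 0.12, edgeR adjusted p = 0.0289), just under the 0.5 of the study's criteria, and it was 0.48 both without K14J26 and without J6 and J7. The call held without K14J26 (adjusted p = 0.0327) or K14J28 (0.00704) and was lost without any other single embryo, with adjusted p from 0.0548 to 0.0823, and without J6 and J7 (0.188). The other 3 of the class were not called. Their log2 fold changes were -0.11 for Slc2a6, 0.26 for Slc2a8 and 0.36 for the proton-coupled inositol carrier Slc2a13 (SE 0.14, edgeR adjusted p = 0.108).

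Of the class I glucose carriers, 3 of 4 were tested and 1 fell. Slc2a3 (GLUT3, ENSMUSG00000003153, chr6:122727809-122801640), the high-affinity carrier best known from neurons, was at 10, 11.2, 7.99 and 9.62 CPM in J3, J5, J6 and J7. The mutants K14J26, K14J28, K14J29 and K14J30 had 4.23, 8.08, 5.71 and 6.17 CPM. The groups overlapped, as K14J28 was just above J6. The mean fell from 9.70 ± 1.32 CPM in the WT to 6.05 ± 1.59 CPM in the mutants (SD, n = 4 embryos each), and the log2 fold change was -0.68 (SE 0.19, edgeR adjusted p = 0.0432). It was -0.54 without K14J26 and -0.81 without J6 and J7. The call held without K14J26 (adjusted p = 0.0441) or K14J28 (0.0106) and was lost without any other single embryo (0.0558 to 0.111) and without J6 and J7 (0.161).

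Slc2a1 (chr4:119108711-119137983), the sugar carrier with the most abundant transcript, was at 53.2, 45.5, 57.8 and 52.3 CPM in the WT and 58.4, 59.8, 62.8 and 59.0 CPM in the mutants. All mutants were above all WT embryos, by a small margin. The log2 fold change of 0.20 (SE 0.08, 95% interval 0.03 to 0.37) did not pass (edgeR adjusted p = 0.102), and it was 0.21 without K14J26, 0.28 without J6 and J7, 0.13 without J5 and 0.10 with library size only. Slc2a4 (GLUT4), the insulin-responsive carrier of muscle and fat, was at 8.16 to 9.69 CPM in the WT and 5.09 to 9.51 CPM in the mutants, with a log2 fold change of -0.40 (edgeR adjusted p = 0.159). J6 and J7, where muscle markers were high, had 9.54 and 9.69 CPM of it, and J3 and J5 had 9.41 and 8.16 CPM. The 2 tested class II carriers, Slc2a5 for fructose and Slc2a9 for urate, had log2 fold changes of 0.26 and 0.27 and were not called.

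Lactate and pyruvate leave and enter cells mainly through Slc16a1, Slc16a3 and Slc16a7, and 1 of these 3 rose. Slc16a7 (MCT2, ENSMUSG00000020102, chr10:125219270-125389465), a high-affinity pyruvate and lactate carrier, was at 9.41, 14.3, 12.4 and 10.6 CPM in J3, J5, J6 and J7 and at 21.0, 14.9, 17.8 and 15 CPM in K14J26, K14J28, K14J29 and K14J30. K14J26 was the highest, and K14J28 was barely above J5. The mean rose from 11.7 ± 2.16 CPM in the WT to 17.2 ± 2.89 CPM in the mutants (SD, n = 4 embryos each), and the log2 fold change was 0.55 (SE 0.16, edgeR adjusted p = 0.0448). It was 0.44 without K14J26 and 0.52 without J6 and J7. The call held without K14J28 (adjusted p = 0.0286) and was lost without each of the other 7 embryos (0.0523 to 0.122) and without J6 and J7 (0.234).

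Slc16a1 (chr3:104638668-104658462), the lactate carrier with the most abundant transcript, was at 83.2, 88.8, 89.1 and 86.6 CPM in the WT and 57.7, 81.9, 68.2 and 76.6 CPM in K14J26, K14J28, K14J29 and K14J30. All mutants lay below all WT embryos, and K14J26 was the lowest. The log2 fold change was -0.29 (SE 0.10, edgeR adjusted p = 0.0788), and -0.20 without K14J26 and -0.28 without J6 and J7. Of the alternatives it passed without K14J28 (adjusted p = 0.0250) and with DESeq2 (0.0497), and elsewhere the adjusted p ran up to 0.894. Slc16a3 (MCT4), the lactate exporter of glycolytic cells, was at 8.31 CPM in K14J26 and at 18.7 to 25.2 CPM in the other 7 embryos, with a log2 fold change of -0.31 (SE 0.27, edgeR adjusted p = 0.436).

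The remaining Slc16 genes held the fall with the smallest adjusted p of any carrier. Slc16a6 (MCT7, ENSMUSG00000041920, chr11:109450855-109473598), a carrier linked to ketone body and taurine transport, was at 26.2, 30.5, 26.9 and 28.9 CPM in J3, J5, J6 and J7 and at 10.1, 17.2, 16.5 and 16.5 CPM in K14J26, K14J28, K14J29 and K14J30. The groups were well apart, with the highest mutant far below the lowest WT embryo. The mean fell from 28.1 ± 1.94 CPM in the WT to 15.1 ± 3.33 CPM in the mutants (SD, n = 4 embryos each), and the log2 fold change was -0.90 (SE 0.16, edgeR adjusted p = 0.0119). The call held without each of the 8 embryos, with log2 fold changes from -0.97 to -0.75, the latter without K14J26, but not without J6 and J7 together (-0.91, adjusted p = 0.134). Of its exon bases 21.5% lie opposite exons of Amz2, which was at 78.8 CPM in the WT and 75.1 CPM in the mutants, and the counts of the overlap cannot be told apart.

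The orphan members Slc16a4 and Slc16a14 were lower by the study's criteria, with adjusted p values over 0.05. Slc16a4 (MCT5, chr3:107291230-107312115) was at 5.04, 5.40, 5.29 and 7.33 CPM in the WT and 4.13, 3.09, 3.67 and 4.69 CPM in the mutants (log2 fold change -0.57, SE 0.18, edgeR adjusted p = 0.0573). Slc16a14 (chr1:84905898-84935134) was at 1.60, 1.07, 1.09 and 1.49 CPM and 1.06, 0.698, 0.831 and 0.465 CPM (log2 fold change -0.79, SE 0.28, edgeR adjusted p = 0.0851). In both genes every mutant was below every WT embryo, by a narrow gap in Slc16a14. Slc16a4 passed with upper-quartile scaling (adjusted p = 0.0445), library size only (0.0460) and DESeq2 (0.0224), and over the other alternatives the adjusted p ran up to 0.290. Its log2 fold change was -0.60 without K14J26, -0.43 without J6 and J7 and -0.44 without J7 alone, the last 2 being under the 0.5 of the study's criteria. Without K14J26 the adjusted p of Slc16a14 was 0.0448 (log2 fold change -0.97), and over all alternatives it ran up to 0.269. Without J6 and J7 its log2 fold change was -0.81. Slc16a13 was at 7.78 to 9.93 CPM in the WT and 6.68 to 9.15 CPM in the mutants, with a log2 fold change of -0.07.

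Slc16a10 (TAT1, chr10:40033532-40142258), a carrier of aromatic amino acids, was at 9.35, 9.52, 8.97 and 8.51 CPM in the WT. The mutants K14J26, K14J28, K14J29 and K14J30 had 2.02, 8.41, 5.33 and 5.82 CPM. All mutants were below all WT embryos but spread widely, from near the WT in K14J28 to the lowest level in K14J26. The log2 fold change was -0.74 (SE 0.33, edgeR adjusted p = 0.140), and it was -0.48 without K14J26, -0.80 without J6 and J7 and -1.04 without K14J28, where the adjusted p was 0.0365, against up to 0.865 over the other alternatives. The carnitine and creatine carriers Slc16a9 and Slc16a12 had log2 fold changes of -0.06 and -0.20 and were not called.

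Summed over the 14 Slc16 genes, the level was 217 to 228 CPM in the WT and 159 to 198 CPM in the mutants, with the lowest sum in K14J26. The Slc2 sum was 123 to 137 CPM in the WT and 136 to 156 CPM in the mutants. The Slc16 sums did not overlap and were lower in the mutants, and the Slc2 sums overlapped at the edge. The single genes with the largest part in these sums were Slc16a1 and Slc2a1. The median log2 fold change was -0.29 over the 11 tested Slc16 genes and 0.26 over the 10 tested Slc2 genes, against 0.01 over all genes, which is a description of the families and not a test of them. Over all 62 carriers the sum was 619 to 657 CPM in the 8 embryos.

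The sodium-coupled Slc5 family held the largest log2 fold change of the tested carriers, at a low level. Slc5a8 (SMCT1, ENSMUSG00000020062, chr10:88885992-88929515), which takes up lactate, pyruvate and short-chain fatty acids, had 3, 5, 11 and 7 counts in J3, J5, J6 and J7. It had 52, 26, 21 and 18 counts in K14J26, K14J28, K14J29 and K14J30. As CPM these were 0.166, 0.206, 0.570 and 0.236 in the WT and 2.5, 0.865, 0.727 and 0.698 in the mutants. All mutants were above all WT embryos, and K14J26 stood far above the other 3. Of the WT embryos only J6 reached 10 counts, so that Slc5a8 passed the count filter through the mutants alone. The log2 fold change was 2.0 (SE 0.56, edgeR adjusted p = 0.0414), with a 95% interval from 0.74 to 3.26, and it was 1.39 without K14J26 (adjusted p = 0.0409). It was 2.60 without J6 and J7 (0.158), and the call was also lost without J3 (0.106), J5 (0.105), J7 (0.115) or K14J29 (0.0718).

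Slc5a5 (NIS, chr8:70882889-70892757), the iodide carrier of the thyroid, had 7 to 14 counts in the WT and 19 to 35 in the mutants. It was at 0.387, 0.536, 0.674 and 0.473 CPM in the WT and 0.913, 0.698, 1.04 and 1.36 CPM in the mutants. The groups did not overlap, with K14J28 just above J6, and the log2 fold change was 0.95 (SE 0.29, edgeR adjusted p = 0.0533). Slc5a9 (chr4:111875375-111902918), a carrier of mannose and other hexoses, was at 0.498, 0.124, 0.156 and 0.0675 CPM in the WT and 1.10, 1.03, 0.831 and 0.0776 CPM in the mutants. K14J30 had 2 counts and lay among the WT embryos, and the log2 fold change was 1.94 (SE 0.76, edgeR adjusted p = 0.107). No WT embryo reached 10 counts of Slc5a9, which thus entered the test through the mutants alone. A filter of 10 counts in at least 4 embryos left it out, and 4 carriers were then higher past the study's criteria. Slc5a9 depended on single embryos, with log2 fold changes of 2.72 without J3, 1.74 without K14J26 and 1.34 without J6 and J7, while those of Slc5a5 were 0.98 without K14J26 and 1.09 without J6 and J7. Without K14J28 the adjusted p of Slc5a5 was 0.0263, and without K14J30 that of Slc5a9 was 0.0342, while over the other alternatives they ran up to 0.408 and 0.444.

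Slc5a6 (chr5:31036036-31048924), the highest Slc5 gene, was at 12.1, 10.7, 10.5 and 10.3 CPM in the WT and 11.2, 13.3, 9.49 and 11.6 CPM in the mutants. The groups overlapped fully (log2 fold change 0.07, SE 0.12, 95% interval -0.20 to 0.34), and the log2 fold change was 0.08 without K14J26 and -0.00 without J6 and J7. The inositol carrier Slc5a3 had a log2 fold change of -0.01 (SE 0.10, 95% interval -0.24 to 0.23). The glucose carriers Slc5a1 and Slc5a2, of intestine and kidney, were at 0.371 to 1.44 CPM and had log2 fold changes of -0.24 and -0.09. Of the exon bases of Slc5a2, 20.6% lie opposite exons of BC017158, which stood at 51.9 CPM in the WT and 65.6 CPM in the mutants. Slc5a10 was at 0.439 to 1.49 CPM with a log2 fold change of 0.74 (edgeR adjusted p = 0.205), and 16.6% of its exon bases lie opposite exons of Fam83g, whose own log2 fold change was 0.97.

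No Slc22 carrier passed either rule in edgeR, where the adjusted p values of the 7 tested ones ran from 0.0592 to 0.823, 2 had an unadjusted p under 0.05, and DESeq2 called 1. Slc22a17 (chr14:54906304-54913132) was at 104, 95, 105 and 83.6 CPM in the WT and 144, 90.3, 101 and 107 CPM in K14J26, K14J28, K14J29 and K14J30. K14J26 was the highest and the other mutants lay within or just above the WT range (log2 fold change 0.19, SE 0.14, edgeR adjusted p = 0.354, and 0.04 without K14J26 and 0.15 without J6 and J7). Slc22a23 had the smallest SE of the tested carriers (0.06), at 98.6 to 103 CPM in the WT and 93.1 to 111 CPM in the mutants, with a log2 fold change of 0.02 (95% interval -0.12 to 0.17). The carnitine and zwitterion carriers Slc22a5, Slc22a21 and Slc22a4 had log2 fold changes of -0.07, -0.27 and -0.48. Slc22a5 and Slc22a21 share 12.9% and 10.6% of their 100-base stretches, so that their counts are in part uncertain. Slc22a15 had the smallest adjusted p of the family (log2 fold change -0.31, SE 0.10, edgeR adjusted p = 0.0592).

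**Figure D3:**
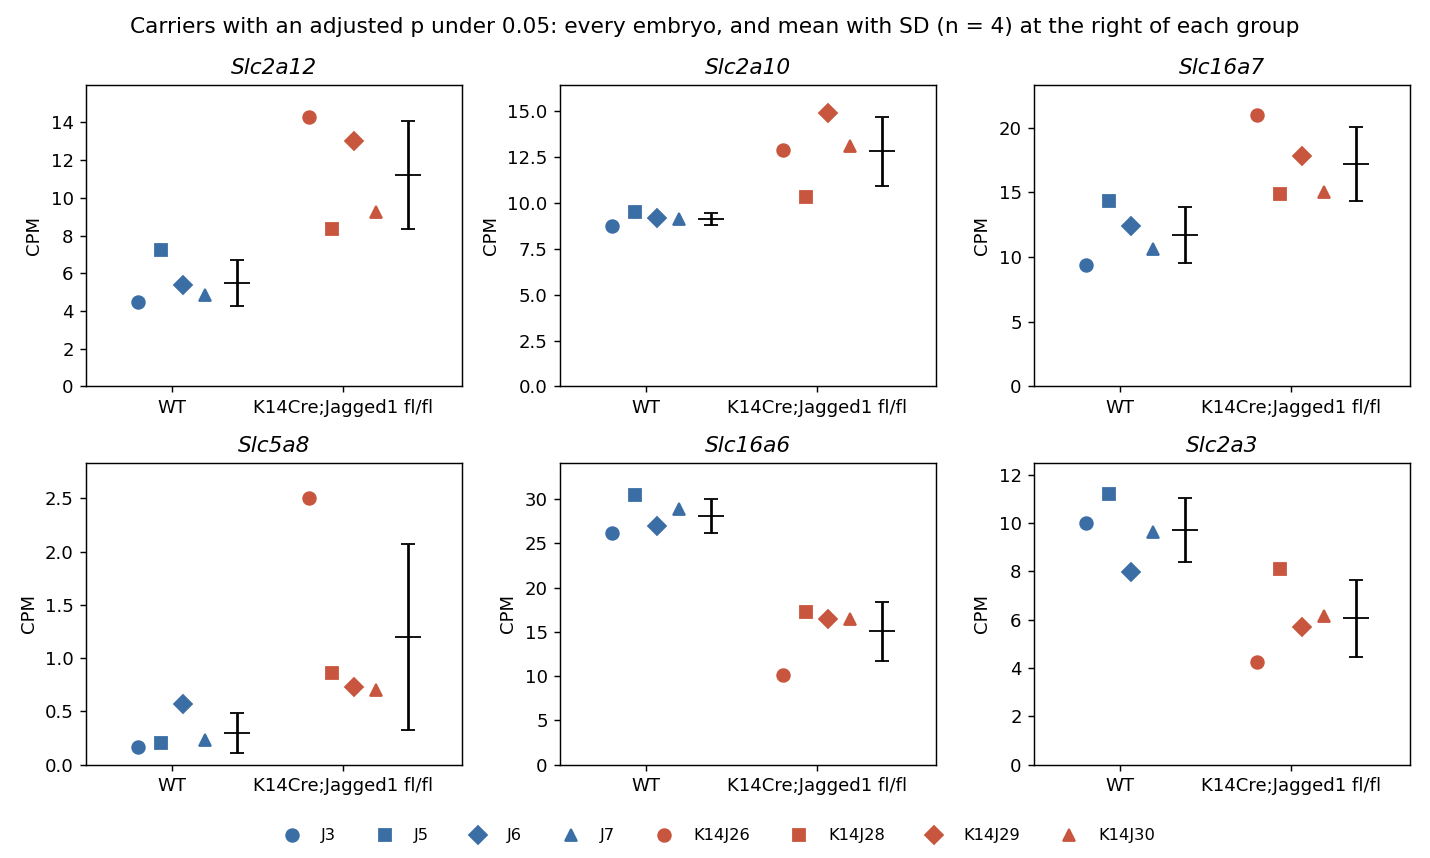
CPM of the 6 carriers with an adjusted p under 0.05 in every embryo, with axes that start at 0 and, at the right of each group, the mean with the SD (n = 4). Blue is WT and red K14Cre;Jagged1 fl/fl, with a marker shape per embryo. The groups are apart in all but Slc2a3, and K14J26 (red circle) is the outermost mutant in all but Slc2a10.

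The carriers were set beside the enamel genes, whose level differed widely between the mutants. The ameloblast score fell in the order K14J26, K14J29, K14J30 and K14J28. Slc2a12 and Slc16a7 followed this order from high to low, and Slc16a6 and Slc2a3 followed it from low to high. In Slc16a6 both K14J29 and K14J30 were at 16.5 CPM, so that their order rests on digits not printed. Of the 36 tested carriers 27.8% followed the order in either direction, against 26.1% of all tested genes, and of the called ones 4 of 6 (66.7%), against 32.9% of all called genes. K14J26 was the mutant farthest from the WT mean in 19 of 36 carriers (52.8%), against 50.5% of all tested genes, and in 5 of the 6 called ones, against 57.8% of all called genes. The 6 are too few to read a difference from. With the ameloblast score as a covariate edgeR called no carrier, 0 being higher and 3 lower at an unadjusted p under 0.05, and of all 17129 genes it then called 186 higher and 112 lower, against 1631 and 1133 without the covariate. The log2 fold changes were then 0.39 for Slc2a12, 0.28 for Slc2a10, 0.10 for Slc16a7, 0.64 for Slc5a8, -0.54 for Slc16a6 and -0.16 for Slc2a3. Over the 19 alternatives the adjusted p ran from 0.000161 to 0.330 for Slc2a12, 0.00488 to 0.386 for Slc2a10, 0.0113 to 0.760 for Slc16a7, 0.00746 to 0.567 for Slc5a8, 3.7e-06 to 0.134 for Slc16a6 and 0.00756 to 0.703 for Slc2a3, with the lowest value from DESeq2 in all 6. The score and the genotype go together in these embryos (4.74 to 6.88 in WT, 6.95 to 11.78 in mutants) and cannot be told apart. The ameloblast markers, 4 of 5 of which rose, summed to 557 to 3252 CPM in the WT and 3500 to 114298 CPM in the mutants. The odontoblast markers, with 4 of 5 higher, summed to 4503 to 8437 and 7805 to 24144 CPM.

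**Figure D4:**
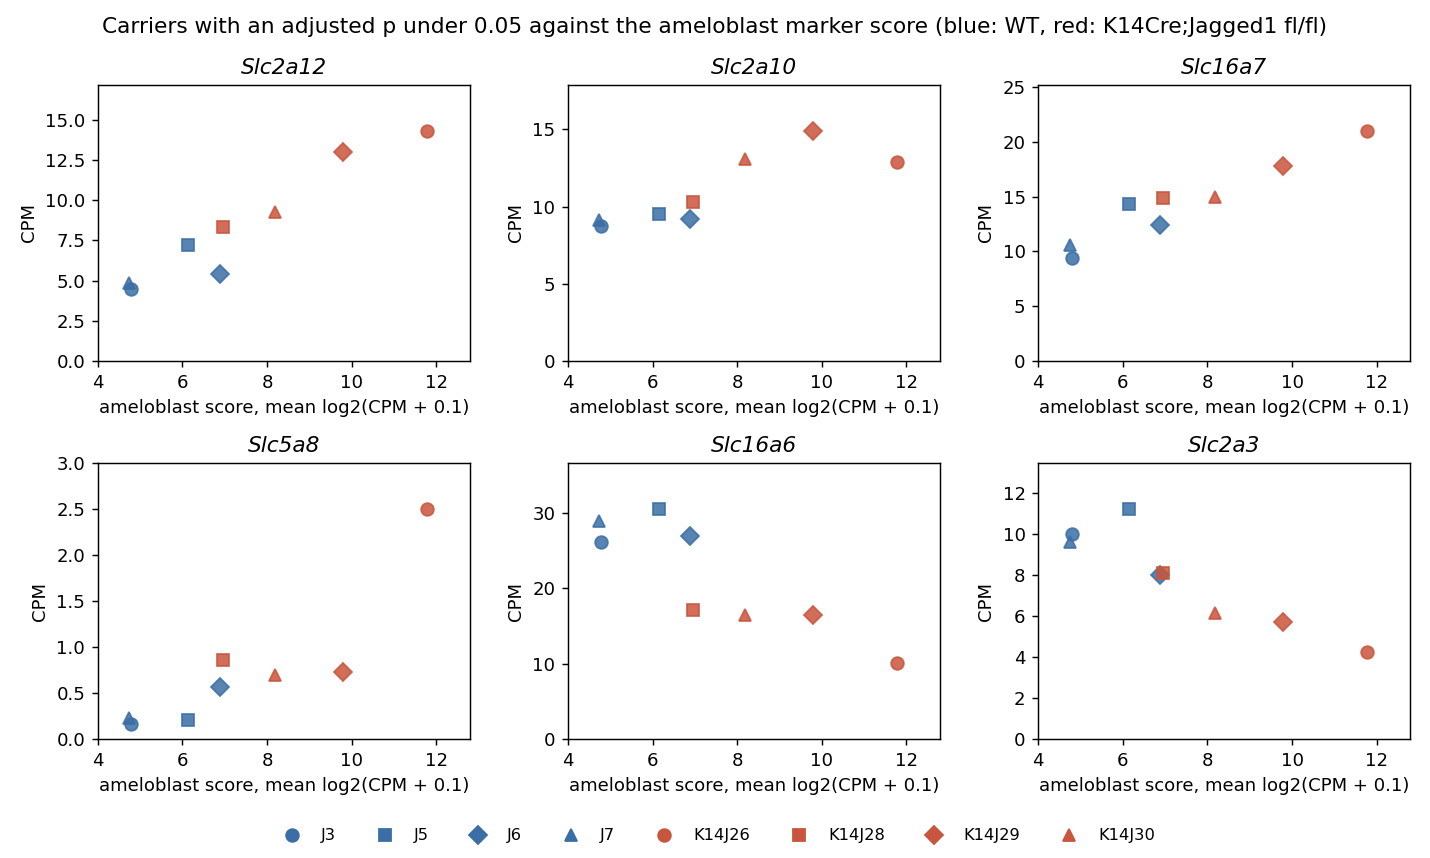
CPM of the same 6 carriers against the ameloblast score of each embryo, the mean log2(CPM + 0.1) of 5 enamel genes, with blue for WT and red for K14Cre;Jagged1 fl/fl and a marker shape per embryo. Slc2a12 and Slc16a7 are highest and Slc16a6 and Slc2a3 lowest in K14J26, which has the highest score of 11.78.

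Markers of other tissues were measured in the same libraries. Bone markers were higher for 3 of 5 genes (409 to 500 CPM in the WT, 575 to 785 CPM in the mutants), and Schwann cell and nerve markers for 1 of 6 (254 to 293 and 260 to 393 CPM). Endothelial markers were lower for 1 of 6 (290 to 319 and 231 to 281 CPM), and skeletal muscle markers for 1 of 8. Erythroid (891 to 1332 and 684 to 1671 CPM), macrophage (86.9 to 114 and 73.2 to 174 CPM) and osteoclast markers (191 to 436 and 187 to 1339 CPM) had no gene called by edgeR, with 0, 0 and 1 gene at an unadjusted p under 0.05 and none called by DESeq2. Nor had cartilage (72.6 to 87.3 and 62.9 to 72.9 CPM, 4 of 5 tested) or adipocyte markers (5.92 to 9.56 and 4.37 to 6.79 CPM, 1 of 5 tested, with Lep at 0 counts), where 1 cartilage gene had an unadjusted p under 0.05 and was called by DESeq2. The part of these tissues in the carrier values was not tested.

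Carriers work with partner proteins and enzymes, of which 26 were listed, 25 were found and 23 were tested, with 2 higher and 1 lower and a median log2 fold change of 0.03. Insr, the insulin receptor, was at 61.1, 71.3, 70.8 and 60.9 CPM in the WT and 125, 82.1, 104 and 88.7 CPM in K14J26, K14J28, K14J29 and K14J30 (log2 fold change 0.60, SE 0.13, edgeR adjusted p = 0.0207). Pdk1, a kinase that holds pyruvate back from the mitochondrion, was at 79.4 to 84.0 CPM in the WT and 49.4 to 74.1 CPM in the mutants (log2 fold change -0.44, SE 0.11, edgeR adjusted p = 0.0316). In both genes the groups did not overlap and K14J26 was the outermost embryo.

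The other partners were not called. Bsg, the chaperone that brings Slc16a1 and Slc16a3 to the membrane, was at 436 to 531 CPM in the WT and 455 to 974 CPM in the mutants (log2 fold change 0.48, edgeR adjusted p = 0.119), with the top value in K14J26. Emb, the chaperone that pairs with Slc16a7, had a log2 fold change of -0.40 (SE 0.33, edgeR adjusted p = 0.407). Txnip, which lowers glucose uptake, had 0.18 (SE 0.15). The hexokinases Hk1 and Hk2 had log2 fold changes of 0.04 and 0.08, and the lactate dehydrogenase genes Ldha and Ldhb of -0.18 and 0.02. Ldha was at 265 CPM in K14J26 and 419 to 482 CPM in the other embryos.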

How the data were processed

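The authors pooled the lower molars of each embryo, sequenced the RNA with a kit that does not mark strand, aligned reads with STAR to GRCm38 (p3 in the submitters' processing notes) and deposited 1 table per embryo of raw counts per Ensembl gene, without normalization. The study's methods name GenomicRanges as the counter and the processing notes featureCounts, while the strand rule and the treatment of reads with several matches are not given in the sources used here. The methods give an RNeasy kit and the labels Trizol for the extraction.

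Symbols, positions and exon lengths came from GENCODE M21 (GRCm38), which holds 42548 of the 43629 identifiers. In R 4.3.3, genes that reached 10 counts in 2 or more embryos of at least 1 group were scaled by TMM and compared between the 4 Mutant and 4 Control embryos, with no covariate, by the quasi-likelihood test of edgeR 4.0.16, with Benjamini-Hochberg adjustment over all 17129 genes. CPM are computed on TMM-scaled library sizes. The SE was taken as the size of the log2 fold change over the root of the F value. Precision is limited by 4 embryos per group, and 3 counts are worth at most 0.166 CPM. Pairs of embryos of 1 group differed by more than sampling noise (chi-square per degree of freedom of at least 7.16), so none was merged.

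Values in every embryo are given for carriers with an adjusted p under 0.05, for those past the study's criteria, read on the log2 scale, and for the highest of each family per kilobase. The members and gene lists were chosen with earlier results of these data known. The alternatives were other scaling, DESeq2 1.42.0, other filters and thresholds, the 20 most abundant genes left out, covariates for ameloblast, skeletal muscle and Xist level, and each embryo left out. Leaving out J6 and J7 together was chosen after seeing the data. Values of 1 tested carrier and 1 partner gene are not reported here, though they enter the counts, sums and medians.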

Additional observations from a re-analysis of the deposited data

Results flagged for a closer look

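In 3 of 30 groups of 4 embryos (the 15 carriers given embryo by embryo, WT and mutant), 1 embryo lay far from the rest by Dixon's criterion for 4 samples at 95%, the gap to the nearest embryo over the range, which chance meets in about 1 in 20 groups. Slc16a6 was at 10.1 CPM in K14J26 and at 16.5 CPM or more in the other mutants, a gap of 0.896 of the range. Slc5a8 was at 2.5 CPM in K14J26 and at most 0.865 CPM in the other mutants (0.907 of the range). Slc16a4 was at 7.33 CPM in the WT embryo J7 and at most 5.40 CPM in the other WT embryos (0.842 of the range).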

How the results depend on the processing

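By edgeR 4 carriers were higher and 2 lower at an adjusted p under 0.05, and 5 and 5 past the study's criteria. Lower calls became 4 with upper-quartile scaling or library size only, 5 with DESeq2, 1 with no filter on low counts and 6 at an adjusted p under 0.1. Slc2a3 lost its call with library size only (log2 fold change -0.76, edgeR adjusted p = 0.0634) and with no filter (-0.68, 0.0504). Slc16a7 lost its call with upper-quartile scaling (0.50, 0.0520) and library size only (0.44, 0.0671), and Slc2a10 with library size only (0.38, 0.0749). Higher calls became 3 with upper-quartile scaling, 2 with library size only, which shifts the median of all genes by -0.099, and 2 with Xist as a covariate. With the ameloblast score as a covariate 0 were higher and 0 lower, and 0 and 1 past the study's criteria, while of all 17129 genes edgeR called 186 and 112, against 1631 and 1133 in the full comparison. With the muscle score 0 were higher and 0 lower (7 and 4 at an unadjusted p under 0.05, and 99 and 78 called of all genes), and 3 were lower past the study's criteria. At an absolute log2 fold change of at least 1, 3 were higher and 0 lower. With 1 embryo left out, higher calls ran from 0 to 5 and lower calls from 1 to 6, while those of all genes ran from 250 to 2479 and from 170 to 1845, and by the study's criteria from 3 to 6 and from 2 to 6. Without J6 and J7, chosen after seeing the data, edgeR called 0 carriers higher and 0 lower (7 and 2 at an unadjusted p under 0.05) and 3 and 4 of all genes, and 2 carriers were lower past the study's criteria. DESeq2 called all 6 carriers. Among named carriers the sign turned for Slc16a10 (0.12) and Slc22a17 (-0.22) with the ameloblast score, and for Slc5a6 with library size only (-0.03), without K14J28 (-0.02, up to 0.15 with other embryos left out) and without J6 and J7 (-0.00). The cause was not tested. No paired analysis was possible because the labels give the 2 groups no shared replicate numbers. Carriers with few counts, such as Slc5a8 with at most 52, are limited by depth.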
